A study of Homo sapiens with 12 samples.

Results

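The 9 genes described here encode cation-chloride cotransporters of the SLC12 family (SLC12A2, SLC12A4, SLC12A7, SLC12A8 and SLC12A9), the WNK kinases WNK1 and WNK4, and STK39 and OXSR1, the kinases SPAK and OSR1 on which WNKs act. They were taken by gene symbol from an RNA-sequencing table of 58302 genes, and each symbol matched 1 row. The series holds 12 libraries of total RNA from 3 established human prostate cell lines, and the study it belongs to was about voltage-gated chloride channel genes in prostate cancer (PCa), to which these genes do not belong. BPH-1 is a benign epithelial line, and DU145 and PC3 are PCa lines that were first grown from metastases.

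Each line gave 4 libraries. All 3 lines were labelled wild type (WT), received no treatment in the labels and were grown in the same serum-containing medium, so the cell line was the only labelled difference. Each group was a single line. The labels do not say whether the 4 libraries of a line came from separate cultures, so every p-value measures only the spread between these libraries, which may be technical. In bulk RNA, fewer cells that express a gene and less of its RNA per cell cannot be told apart.

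The keratins KRT8 and KRT18, which mark simple epithelium, were at 14.7 FPKM or more in every library. The basal markers KRT5 and TP63 were at 120 to 175 and 11.2 to 13.8 FPKM in BPH-1, at most 0.499 and 0.0542 in DU145 and at most 0.0381 and 0.0234 in PC3. EPCAM and CDH1, both epithelial adhesion genes, were high in BPH-1 (57.7 to 63.2 and 16.3 to 44.6 FPKM), lower in PC3 (6.92 to 11.1 and 0.427 to 1.42 FPKM) and lowest in DU145 (0.166 to 0.573 and 0.0851 to 0.297 FPKM). Of these 6 epithelial markers, the libraries labelled DU145 thus held KRT8 and KRT18 at a clear level and the other 4 at 0.573 FPKM or less. The prostate luminal marker KLK3 was listed at 0 in all 12 libraries, as was the T cell marker CD3E. FPKM is the number of reads of a gene scaled by the length of its exons and by the reads of the library. The libraries held 12950665 to 16309559 reads (median 15341001), as worked out from the steps between low values.

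Libraries differed in how level followed the GC content of the transcript. The slope, in log2 units per 10 points of GC, was -0.388 to -0.32 in the 4 BPH-1 libraries. It was 0.377 and 0.508 in DU145 replicates 1 and 3 but -0.071 and 0.024 in DU145 replicates 2 and 4, and in PC3 it ran from 0.01 in replicate 1 to 0.334 in replicate 4. DU145 replicates 1 and 3 therefore stood apart from the other DU145 libraries, and the 9 genes, whose GC content ran from 42.1% (SLC12A2) to 61.6% (SLC12A7), are given below with and without them where a value rests on DU145. Because all BPH-1 libraries had a negative slope, the slope and the difference from BPH-1 cannot be told apart by design. Values after dividing out each library's GC trend are given beside the deposited ones.

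Cation-chloride cotransporters set the chloride content and the volume of a cell. SLC12A2 (NKCC1) carries sodium, potassium and chloride inwards, whereas the potassium-chloride cotransporters SLC12A4 (KCC1) and SLC12A7 (KCC4) carry potassium and chloride outwards. WNK kinases, which respond to low chloride and to cell shrinkage, phosphorylate SPAK and OSR1. These in turn phosphorylate the cotransporters, which activates SLC12A2 and inhibits the potassium-chloride cotransporters, so that the same signal favours chloride entry over exit. SLC12A8 and SLC12A9 belong to the family by sequence, and their transport roles are less settled.

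**Figure D1:**
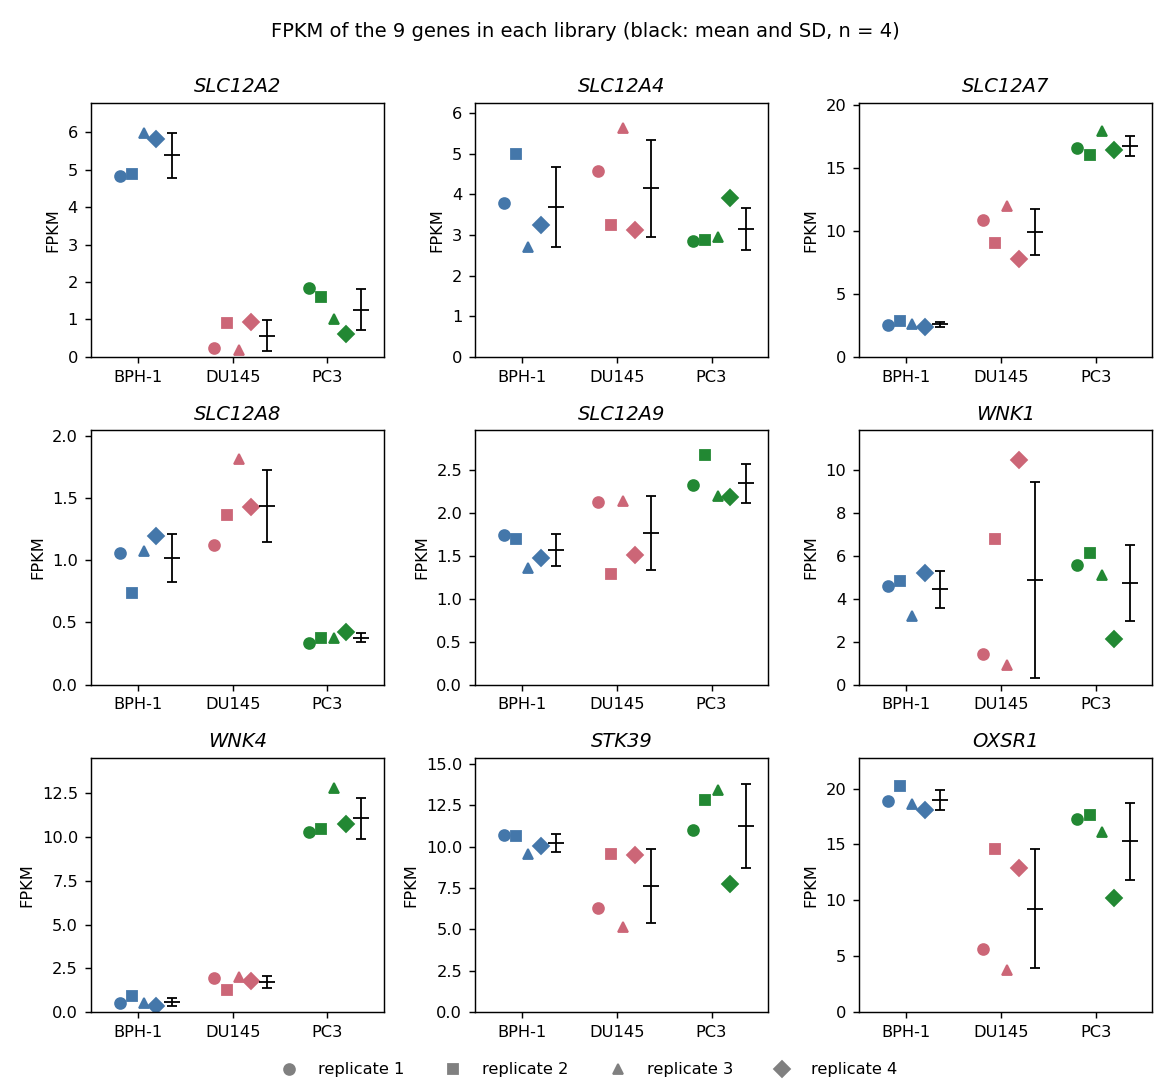
FPKM (linear axis from 0) of each of the 9 genes in each library, by line, with the mean and SD of the 4 libraries in black and 1 marker shape per replicate number. WNK4 and SLC12A7 are highest in the 4 PC3 libraries, SLC12A2 is highest in the 4 BPH-1 libraries, and WNK1 in DU145 splits into 2 low and 2 high libraries.

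Differences between lines were tested with limma on log2(FPKM + 1) across all genes that passed a filter on low reads, with Benjamini-Hochberg adjustment over all of them, and a gene is called changed at an adjusted p under 0.05. Fold changes on this scale understate the change of genes under about 1 FPKM, so ratios of mean FPKM are given as well. All 9 genes passed the filter in each comparison. In PC3 against BPH-1, 5 of the 9 genes changed, 3 higher (SLC12A7, SLC12A9 and WNK4) and 2 lower (SLC12A2 and SLC12A8), while 67.6% of all 16408 genes tested changed (27.1% higher and 40.4% lower). In DU145 against BPH-1, 4 of the 9 changed, 2 higher (SLC12A7 and WNK4) and 2 lower (SLC12A2 and OXSR1), against 62.7% of 17016 genes (30.3% higher and 32.4% lower). In PC3 against DU145, 3 of the 9 changed, with SLC12A7 and WNK4 higher in PC3 and SLC12A8 lower, against 48.3% of 16420 genes (20.0% higher and 28.3% lower). The share of the 9 that changed was thus at or under the share of all genes. The median log2 fold change of the 9 was 0.02, 0.10 and 0.52 in the 3 comparisons in that order, and that of all genes was -0.13, -0.03 and -0.06.

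The genes with over 1 log2 unit of change were SLC12A2, SLC12A7 and WNK4 in PC3 against BPH-1, where 27.0% of all genes changed by that much. In DU145 against BPH-1 they were SLC12A2, SLC12A7 and OXSR1 (28.8% of all genes), and in PC3 against DU145 WNK4 alone (19.3%). This cut is on log2(FPKM + 1), where a gene of low level can fall short at a larger ratio of means. SLC12A8 in PC3 against BPH-1 was one such, at -0.55 with a mean 2.70-fold lower. Libraries of PC3 and BPH-1 did not overlap for 6 of the 9 genes, 3 with PC3 higher and 3 lower (the called genes and OXSR1), against 64.4% of all genes (25.8% higher and 38.6% lower). For DU145 and BPH-1 they did not overlap for 5, 2 higher and 3 lower (the called genes and STK39), against 59.5% (28.8% and 30.6%). For PC3 and DU145 they did not overlap for 4, 3 higher and 1 lower (the called genes and SLC12A9), against 46.5% (19.1% and 27.5%). The comparisons share libraries and so are not independent of each other.

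**Figure D2:**
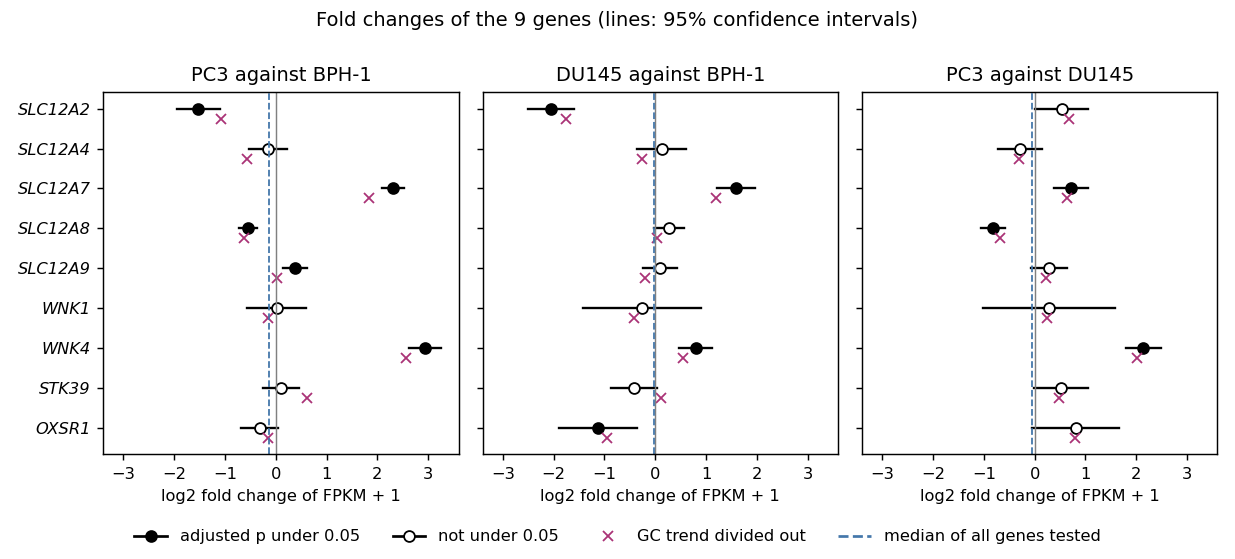
Log2 fold change of FPKM + 1 for the 9 genes in the 3 comparisons, with 95% confidence intervals, filled where the adjusted p is under 0.05. Crosses show the value with the GC trend of each library divided out, and dashed lines the median of all genes tested (-0.126, -0.026 and -0.055).

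SLC12A2 was the only one of these transporters with its highest level in BPH-1. It lies on chromosome 5 (GRCh38, 128083766 to 128189688, plus strand, ENSG00000064651). Its 4 BPH-1 libraries read 4.82, 4.90, 5.99 and 5.82 FPKM. The PC3 libraries read 1.84, 1.60, 1.01 and 0.618 FPKM. The DU145 libraries read 0.243, 0.919, 0.189 and 0.932 FPKM, which is 46 to 236 reads. Every BPH-1 library was above every library of the PCa lines, while the PC3 and DU145 libraries overlapped. The mean of BPH-1 (5.38 ± 0.608 FPKM, SD, n = 4) was 4.25-fold that of PC3 (1.27 ± 0.556) and 9.43-fold that of DU145 (0.571 ± 0.410). The log2 fold change was -1.52 (SE 0.184, limma adjusted p = 6.86e-05) in PC3 and -2.06 (SE 0.201, limma adjusted p = 1.81e-05) in DU145. With the GC trend divided out it was -1.08 and -1.77, and without DU145 replicates 1 and 3 the DU145 value was -1.72 (limma adjusted p = 6.58e-05). PC3 and DU145 differed by 0.53 (95% interval 0.011 to 1.054, limma adjusted p = 0.0857), which did not pass. That difference was called with the GC trend divided out (0.68, limma adjusted p = 0.0166) and without PC3 replicate 4 (0.68, limma adjusted p = 0.0356), and was 0.20 (limma adjusted p = 0.511) without DU145 replicates 1 and 3.

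SLC12A7 moved the other way. It also lies on chromosome 5, near the end of the short arm (1050376 to 1112035, minus strand, ENSG00000113504). BPH-1 libraries read 2.50, 2.82, 2.63 and 2.41 FPKM. DU145 libraries read 10.8, 9.03, 11.9 and 7.80 FPKM. PC3 libraries read 16.6, 16.0, 17.9 and 16.4 FPKM. The 3 lines did not overlap, with BPH-1 lowest and PC3 highest, and PC3 libraries lay close together (16.7 ± 0.811, SD, n = 4). The mean was 6.46-fold higher in PC3 than in BPH-1 (log2 fold change 2.30, SE 0.097, limma adjusted p = 1e-07) and 3.82-fold higher in DU145 (1.59, SE 0.165, limma adjusted p = 2.6e-05). PC3 was 1.69-fold above DU145 (0.72, SE 0.149, limma adjusted p = 0.00347). With the GC trend divided out these differences were 1.84, 1.20 and 0.64 on the log2 scale. Without DU145 replicates 1 and 3 DU145 was above BPH-1 by 1.39 and under PC3 by 0.91. Each of the 3 differences was called under every alternative setting tried at the same threshold of adjusted p.

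The sequences just before the annotated starts of SLC12A2 and SLC12A7 are shown because these were the surface cotransporters that moved furthest, and in opposite directions. Each is the 250 bases upstream of the RefSeq start (GRCh38.p14), 5′ to 3′ on the strand of the gene, at chr5:128083516-128083765 (plus) and chr5:1112064-1112313 (minus). Capitals mark the GC box, GGGCGG on either strand, with overlapping matches counted.
SLC12A2: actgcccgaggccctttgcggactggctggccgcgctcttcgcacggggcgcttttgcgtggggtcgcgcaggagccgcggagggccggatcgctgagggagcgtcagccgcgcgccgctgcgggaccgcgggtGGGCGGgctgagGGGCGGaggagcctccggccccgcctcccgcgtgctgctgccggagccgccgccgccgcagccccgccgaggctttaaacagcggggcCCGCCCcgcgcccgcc
SLC12A7: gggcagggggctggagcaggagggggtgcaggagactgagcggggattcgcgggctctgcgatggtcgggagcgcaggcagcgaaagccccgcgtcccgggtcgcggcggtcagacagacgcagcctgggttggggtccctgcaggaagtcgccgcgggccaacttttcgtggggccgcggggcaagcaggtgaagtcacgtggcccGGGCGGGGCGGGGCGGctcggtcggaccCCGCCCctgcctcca
The SLC12A2 stretch had a GC content of 79.6%, above 96.3% of the 35116 upstream stretches of the same length in RefSeq, and that of SLC12A7 had 74.4%, above 88.4%. They held 3 and 4 matches to the GC box, a motif present in 42.6% of all stretches. Neither held CCAAT (32.0% of all), TATAAA (10.7%) or TGACTCA (4.20%) on either strand. RefSeq sequences were matched for 8 of the 9 genes, and WNK4 was without an entry. No measurement in these libraries bears on binding there.

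Between the benign and the PCa lines, SLC12A2 and SLC12A7 changed places. Of the summed FPKM of SLC12A2, SLC12A4 and SLC12A7, SLC12A2 made up 38.5% to 52.9% in the BPH-1 libraries, 1.07% to 7.86% in DU145 and 2.94% to 8.64% in PC3. SLC12A7 made up 21.0% to 23.2% in BPH-1, 65.8% to 69.2% in DU145 and 77.9% to 81.8% in PC3. The ratio of SLC12A7 to SLC12A2 was 0.414 to 0.576 in BPH-1, 8.36 to 63.0 in DU145 and 9.02 to 26.6 in PC3, with no overlap between BPH-1 and either PCa line. Within DU145 it was 44.6 and 63.0 in replicates 1 and 3, and 9.83 and 8.36 in replicates 2 and 4. These shares and ratios were not corrected for the GC trend. SLC12A2 and SLC12A7 have the lowest and highest GC content of the 9 genes (42.1% and 61.6%). The deposited values use the sum of distinct exons as gene length, which counts overlapping exons repeatedly, and with merged exons the share of SLC12A7 was 16.6% to 18.6%, 57.5% to 60.6% and 71.6% to 76.1% in BPH-1, DU145 and PC3. These are shares of RNA per length, not of protein or of transport.

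**Figure D3:**
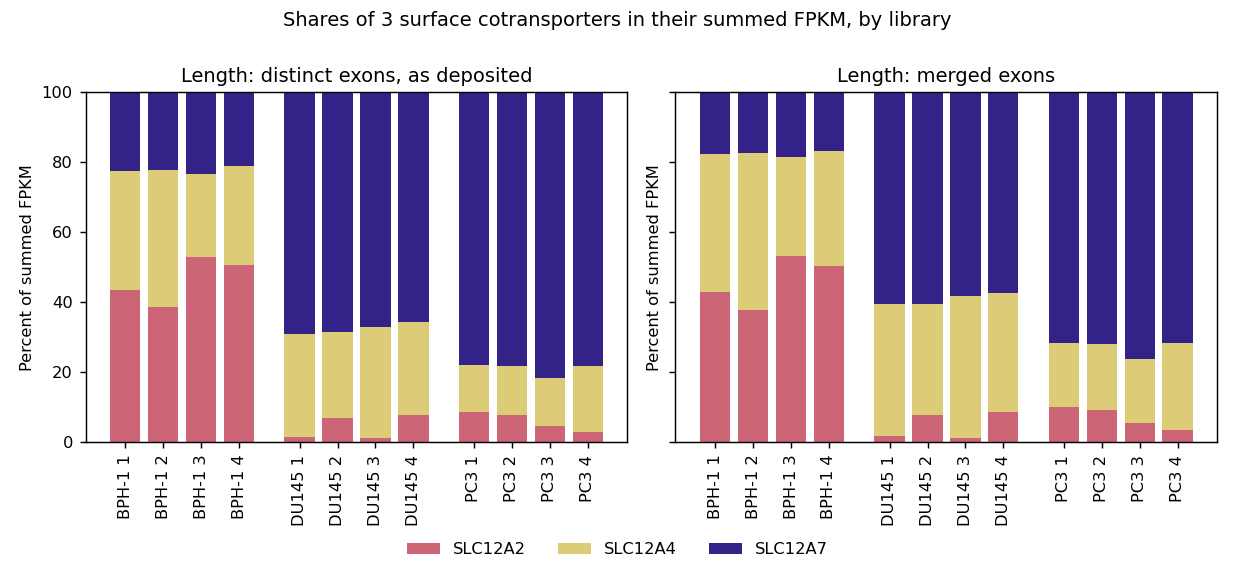
Stacked percent of the summed FPKM of SLC12A2, SLC12A4 and SLC12A7 in each of the 12 libraries, with the length used in the deposited table (left) and with merged exons (right). SLC12A7 takes 21.0% to 23.2% in the BPH-1 libraries and 65.8% or more in every DU145 and PC3 library with the deposited length.

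SLC12A4, the housekeeping potassium-chloride cotransporter, showed no difference that passed. It lies on chromosome 16 (67943474 to 67969601, minus strand, ENSG00000124067) and shares 336 exon bases with LCAT on the same strand, a gene at 0.391 to 1.43 FPKM on average per line. BPH-1 libraries read 3.79, 5.001, 2.71 and 3.26 FPKM, DU145 libraries 4.59, 3.24, 5.64 and 3.13, and PC3 libraries 2.86, 2.87, 2.96 and 3.92. The ranges of all 3 lines overlapped. The highest PC3 value was that of replicate 4, which had the steepest GC slope of its line (0.334). The difference from BPH-1 was -0.16 on the log2 scale in PC3 (95% interval -0.533 to 0.213, limma adjusted p = 0.413) and 0.13 in DU145 (-0.355 to 0.614, limma adjusted p = 0.621), which leaves room for a moderate change either way. With the GC trend divided out SLC12A4 was lower in PC3 than in BPH-1 by a call (-0.56, limma adjusted p = 0.00871). DU145 against BPH-1 changed sign to -0.25 with that correction and to -0.14 without DU145 replicates 1 and 3, and was not called in either. PC3 against DU145 was -0.29 (limma adjusted p = 0.253), called at -0.31 (limma adjusted p = 0.0389) with the GC trend divided out, and -0.02 without DU145 replicates 1 and 3.

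SLC12A8 was the lowest of the 9 genes in PC3. It lies on chromosome 3 (125082636 to 125212864, minus strand, ENSG00000221955). BPH-1 libraries read 1.058, 0.740, 1.07 and 1.20 FPKM, DU145 libraries 1.12, 1.37, 1.82 and 1.43, and PC3 libraries 0.333, 0.378, 0.373 and 0.424. All PC3 libraries were under all others, and BPH-1 and DU145 overlapped. PC3 was 2.70-fold under BPH-1 (log2 fold change -0.55, SE 0.081, limma adjusted p = 0.000255) and 3.81-fold under DU145 (-0.82, SE 0.105, limma adjusted p = 0.000203), and both were called under every alternative at the same threshold of adjusted p. DU145 against BPH-1 was 0.27 (95% interval -0.021 to 0.562, limma adjusted p = 0.0955), 0.26 without DU145 replicates 1 and 3, and 0.04 with the GC trend divided out. With that correction PC3 was under BPH-1 by a log2 difference of -0.63 and under DU145 by one of -0.67, and without those libraries the latter was -0.80. SLC12A8 and SLC12A7 were the members of the SLC12 family called different between the PCa lines.

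SLC12A9 differed less. It lies on chromosome 7 (100826820 to 100867009, plus strand, ENSG00000146828), and 69 of its exon bases overlap EPHB4 on the opposite strand, a gene that read 8.21, 12.7 and 21.7 FPKM on average in BPH-1, DU145 and PC3. BPH-1 libraries read 1.74, 1.69, 1.35 and 1.48 FPKM, DU145 libraries 2.12, 1.29, 2.14 and 1.50, and PC3 libraries 2.32, 2.67, 2.20 and 2.18. PC3 lay above both other lines without overlap. It was 1.49-fold above BPH-1 (log2 fold change 0.38, SE 0.106, limma adjusted p = 0.00965), but the difference was 0.03 (limma adjusted p = 0.851) with the GC trend divided out and 0.20 (limma adjusted p = 0.116) with every library scaled to the same sum. DU145 against BPH-1 was 0.10 (95% interval -0.24 to 0.43, limma adjusted p = 0.599), -0.21 with the GC trend divided out and -0.10 without DU145 replicates 1 and 3. PC3 against DU145 was 0.29 (limma adjusted p = 0.161), 0.23 (limma adjusted p = 0.0837) with the GC trend divided out, and called at 0.48 (limma adjusted p = 0.0233) without those libraries.

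WNK4 had the largest change of the 9 genes. It lies on chromosome 17 (42780678 to 42796936, plus strand, ENSG00000126562). BPH-1 libraries read 0.538, 0.936, 0.515 and 0.344 FPKM, which is 35 to 93 reads. DU145 libraries read 1.92, 1.25, 2.02 and 1.79 FPKM. PC3 libraries read 10.3, 10.4, 12.8 and 10.7 FPKM, which is 868 to 1158 reads. The 3 lines did not overlap, in the order BPH-1, DU145, PC3. PC3 (11.1 ± 1.18, SD, n = 4) was 19.0-fold above BPH-1 (0.583 ± 0.250; log2 fold change 2.94, SE 0.14, limma adjusted p = 2.1e-07). DU145 (1.75 ± 0.343) was 2.99-fold above BPH-1 (0.80, SE 0.146, limma adjusted p = 0.000939), and PC3 was 6.34-fold above DU145 (2.14, SE 0.152, limma adjusted p = 5.73e-06). With the GC trend divided out the differences were 2.57, 0.55 and 2.01. Without DU145 replicates 1 and 3 DU145 was above BPH-1 by 0.68 and under PC3 by 2.26. All 3 differences were called under every alternative at that threshold. WNK4 is best known from the distal kidney tubule, where it governs salt reabsorption.

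The reads of WNK4 share 816 exon bases with COA3, a mitochondrial assembly factor on the opposite strand, and the use of strand in counting is not given in the sources used here. COA3 read 10.6 ± 1.89, 12.2 ± 3.03 and 8.34 ± 1.42 FPKM in BPH-1, DU145 and PC3 (SD, n = 4), and PC3 against BPH-1 was -0.31 (limma adjusted p = 0.108). The part of reads from COA3 in the WNK4 value was not tested. VPS25, whose start is 7.24 kb upstream, was lower in PC3 than in BPH-1 by a call (-0.26, limma adjusted p = 0.0338), as were EZH1 (-0.37, limma adjusted p = 0.0215), BECN1 (-0.33, limma adjusted p = 0.0322) and PSME3 (-0.68, limma adjusted p = 0.00266). CNTNAP1 differed by 0.25 in PC3 (limma adjusted p = 0.16) and was higher in DU145 by 1.99 (limma adjusted p = 1.3e-05). EZH1 (0.58, limma adjusted p = 0.00735) and BECN1 (0.56, limma adjusted p = 0.0142) were also higher in DU145 than in BPH-1. VPS25, COA3 and PSME3 were not called in DU145. Further off, 467.4 to 581.5 kb before WNK4, the transcription factor genes STAT3, STAT5A and STAT5B were at 15.4, 2.46 and 7.45 FPKM in BPH-1 and at 0.0416, 0 (listed) and 0.00491 FPKM in PC3, while DU145 held 24.2, 4.32 and 17.1. Among the 54 nearest neighbours of the 9 genes (3 on each side), 38 of 54 tested changed in PC3 against BPH-1 (14 higher, 24 lower), where 67.6% of all genes did. For DU145 against BPH-1 it was 26 of 52 (11 higher, 15 lower), against 62.7% of all genes, and between the PCa lines 32 of 53 (15 higher, 17 lower), against 48.3%.

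**Figure D4:**
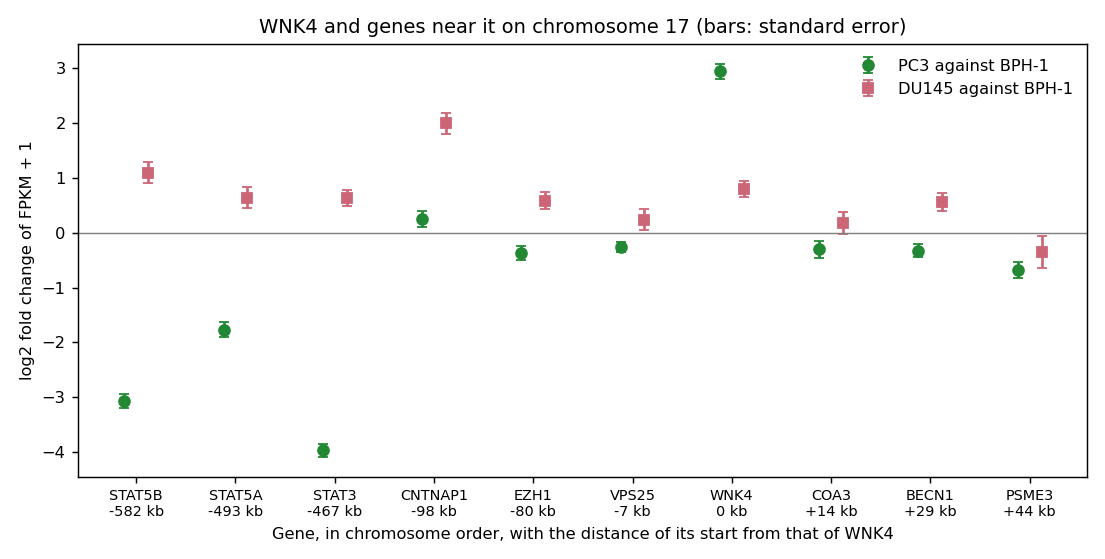
Log2 fold change of FPKM + 1 against BPH-1 (bars, standard error) for WNK4 and nearby genes of chromosome 17, in chromosome order with the distance of each start from that of WNK4, spacing not to scale. WNK4 is at 2.94 in PC3, the 6 genes nearest to it lie between -0.684 and 0.25, and STAT3, STAT5A and STAT5B are at -3.96, -1.77 and -3.06.

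Over the 12 libraries, the 3 protein-coding genes whose log2(FPKM + 1) was most like that of WNK4, among 10838 genes with a mean of at least 100 reads, were SLC39A4, a zinc importer (Pearson r = 0.9924), KRT81, a hair keratin (0.9917) and TBX2, a T-box transcription factor (0.9914). The points fall into 3 lines, and the r values describe the difference between lines. SLC39A4 read 0.0347, 0.831 and 7.66 FPKM, and KRT81 read 1.35, 5.34 and 400.0 FPKM, in BPH-1, DU145 and PC3.

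WNK1, the widely expressed WNK kinase, had means that lay close together in the 3 lines, with a wide spread in DU145. It lies on chromosome 12 (752593 to 911452, plus strand, ENSG00000060237). BPH-1 libraries read 4.59, 4.82, 3.20 and 5.17 FPKM (mean 4.44 ± 0.864, SD, n = 4) and PC3 libraries 5.57, 6.11, 5.09 and 2.12 (4.72 ± 1.784). DU145 libraries read 1.42, 6.77, 0.908 and 10.5 (4.89 ± 4.561). In DU145 the highest was 11.5-fold the lowest, and replicates 1 and 3, the libraries with the steep GC slope, were the low ones. In PC3 the low library was replicate 4, which had the steepest GC slope of its line (0.334). No comparison passed, and the intervals were wide: 0.02 for PC3 against BPH-1 (95% interval -0.56 to 0.599, limma adjusted p = 0.951), -0.26 for DU145 against the benign line (-1.418 to 0.899, limma adjusted p = 0.68) and 0.28 between the PCa lines (-1.017 to 1.575, limma adjusted p = 0.72). Without DU145 replicates 1 and 3, WNK1 was higher in DU145 than in BPH-1 by a call (0.81, limma adjusted p = 0.0157), and without replicates 2 and 4 it was lower by a call (-1.33, limma adjusted p = 0.000655). PC3 against DU145 turned to -0.79 (limma adjusted p = 0.113) without DU145 replicates 1 and 3. With the GC trend divided out and all libraries kept, the 3 differences were -0.16, -0.41 and 0.25, and none was called. The direction for DU145 therefore rested on which libraries were kept, and these data give none for WNK1 in that line.

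The balance of the WNK kinases followed from both genes. The ratio of WNK4 to WNK1 FPKM was 0.0666 to 0.194 in BPH-1 and 1.71 to 5.06 in PC3, without overlap. In DU145 it was 1.36 and 2.23 in replicates 1 and 3 but 0.185 and 0.171 in replicates 2 and 4, so DU145 lay either near PC3 or within the BPH-1 range, according to the library. These ratios use the deposited lengths, in which WNK1 counts as 1.98 times its merged exons and WNK4 as 1.28 times. They were not corrected for the GC trend, and the GC content is 60.3% for WNK4 and 48.9% for WNK1.

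OXSR1 and STK39, which carry the WNK signal to the cotransporters, were the most abundant of the 9 genes per length in BPH-1. OXSR1 lies on chromosome 3 (38165089 to 38255488, plus strand, ENSG00000172939). BPH-1 libraries read 18.9, 20.2, 18.6 and 18.1 FPKM, DU145 libraries 5.64, 14.6, 3.80 and 12.9, and PC3 libraries 17.2, 17.6, 16.1 and 10.2. All DU145 and PC3 libraries were under all BPH-1 libraries, and DU145 replicates 1 and 3 and PC3 replicate 4 were the lowest of their lines. In DU145 OXSR1 was 2.05-fold lower than in BPH-1 (log2 fold change -1.13, SE 0.347, limma adjusted p = 0.0167). The difference was -0.95 (limma adjusted p = 0.00901) with the GC trend divided out and -0.44 (limma adjusted p = 0.00716) without DU145 replicates 1 and 3, and it missed the threshold without DU145 replicate 1 alone (-0.98, limma adjusted p = 0.0509). In PC3 it was -0.32 (95% interval -0.686 to 0.047, limma adjusted p = 0.109), although the libraries did not overlap (p = 0.0286 in a two-sided exact permutation test, the least that 4 against 4 can give), and -0.16 (limma adjusted p = 0.26) with the GC trend divided out. PC3 against DU145 was 0.81 (95% interval -0.049 to 1.668, limma adjusted p = 0.109). It was called with the GC trend divided out (0.79, limma adjusted p = 0.0309), and was 0.12 (limma adjusted p = 0.692) without DU145 replicates 1 and 3.

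STK39 lies on chromosome 2 (167954020 to 168248141, minus strand, ENSG00000198648). BPH-1 libraries read 10.7, 10.7, 9.55 and 10.0 FPKM, DU145 libraries 6.29, 9.55, 5.14 and 9.49, and PC3 libraries 11.0, 12.8, 13.4 and 7.77. All DU145 libraries were under the lowest BPH-1 library, by a small margin in replicates 2 and 4. No comparison passed. DU145 against BPH-1 was -0.42 (95% interval -0.87 to 0.027, limma adjusted p = 0.0918), -0.10 without DU145 replicates 1 and 3, and 0.12 with the GC trend divided out. PC3 against BPH-1 was 0.10 (-0.257 to 0.456, limma adjusted p = 0.598), but 0.61 (limma adjusted p = 0.00177) with the GC trend divided out and 0.25 (limma adjusted p = 0.0467) without PC3 replicate 4. PC3 against DU145 was 0.52 (-0.009 to 1.051, limma adjusted p = 0.0967), called at 0.49 (limma adjusted p = 0.0075) with the GC trend divided out and at 0.67 (limma adjusted p = 0.0404) without PC3 replicate 4, and 0.20 (limma adjusted p = 0.485) without DU145 replicates 1 and 3. The ratio of STK39 to OXSR1 was 0.513 to 0.567 in BPH-1 and 0.639 to 0.832 in PC3, without overlap. It was 1.12 and 1.35 in DU145 replicates 1 and 3 and 0.654 and 0.736 in replicates 2 and 4, so in every PCa library it was above every BPH-1 library. These ratios were not corrected for the GC trend.

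**Figure D5:**
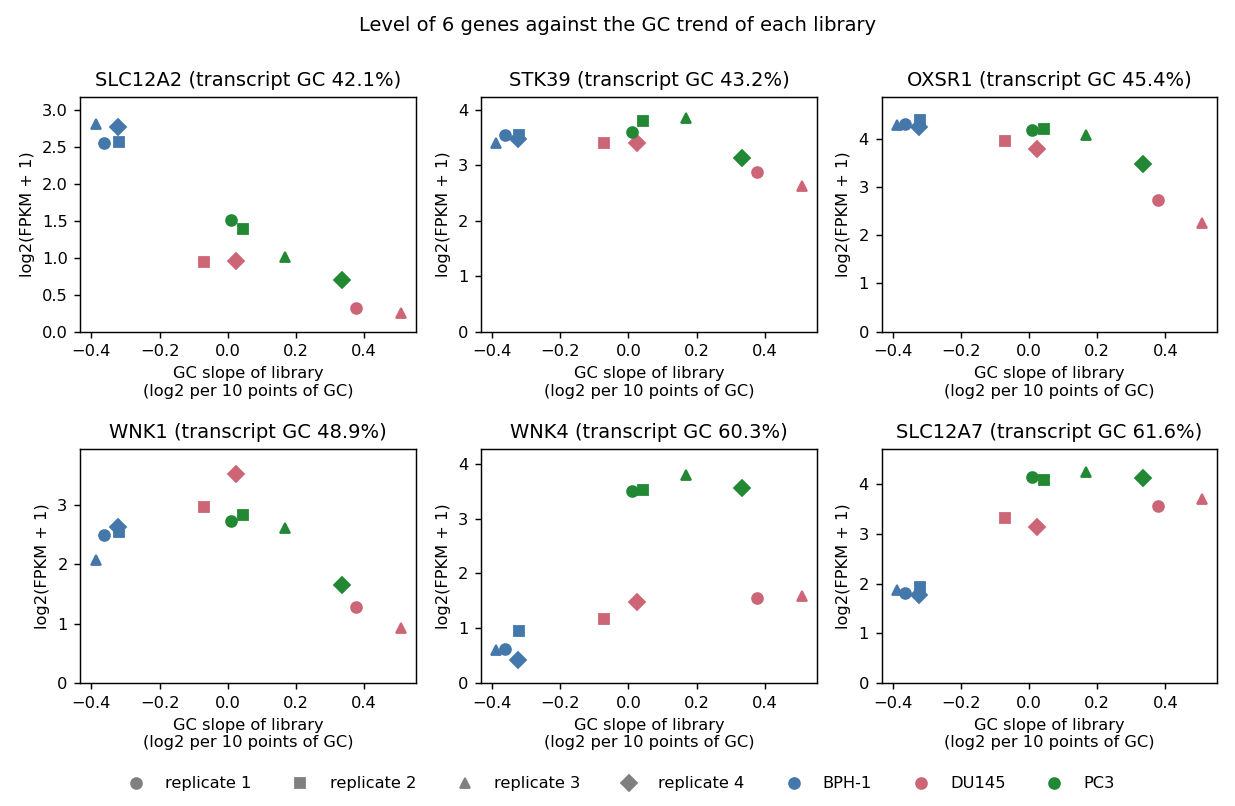
Level, as log2(FPKM + 1), of 6 of the 9 genes against the GC slope of each library (log2 units per 10 points of GC), with panels in order of transcript GC content, colours for lines and shapes for replicate numbers. DU145 replicates 1 and 3 (slopes 0.377 and 0.508) are the low DU145 libraries for SLC12A2, STK39, OXSR1 and WNK1, and not for WNK4 or SLC12A7.

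The direction of the changed genes went with their GC content. SLC12A7, SLC12A9 and WNK4, higher in PC3 than in BPH-1, have a GC content of 61.6%, 61.5% and 60.3%, while SLC12A2 and SLC12A8, which were lower, have 42.1% and 53.5%. Over all genes tested, 42.7% of those of at least 55% GC were higher in PC3 by a call and 20.7% lower, whereas of those under 45% GC 9.79% were higher and 67.7% lower. In DU145 against BPH-1 the shares were 46.9% and 14.5% for high GC and 8.63% and 60.1% for low GC. In PC3 against DU145 they were 22.4% and 35.0% for high GC and 15.3% and 15.5% for low GC. The changes of SLC12A2, SLC12A7, SLC12A8 and WNK4 in PC3 and of SLC12A2, SLC12A7, WNK4 and OXSR1 in DU145 were called with the GC trend divided out, and that of SLC12A9 was not. That correction also removes any difference between lines that itself follows GC content.

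Per length, the order of the 9 levels changed between lines. In BPH-1 the means ran OXSR1, STK39, SLC12A2, WNK1, SLC12A4, SLC12A7, SLC12A9, SLC12A8 and WNK4, and the neighbours from SLC12A2 to SLC12A7 overlapped in their libraries, as did SLC12A8 and WNK4. In DU145 SLC12A7, OXSR1, STK39, WNK1 and SLC12A4 led by mean, each overlapping the next. SLC12A9, WNK4 and SLC12A8 followed and overlapped too, and SLC12A2 was last, with all its libraries under those of SLC12A8. The wide range of WNK1 there (0.908 to 10.5 FPKM) overlapped that of every other member, SLC12A2 included. In PC3 SLC12A7, OXSR1, STK39 and WNK4 led, each overlapping the next, although SLC12A7 was above all libraries of STK39 and WNK4. WNK1 and SLC12A4 followed and overlapped each other. SLC12A9 came next and overlapped WNK1 (2.12 to 6.11 FPKM) but not SLC12A4. SLC12A2 and SLC12A8 were last, each apart. WNK4 thus stood last in BPH-1 and among the leading 4 in PC3, while SLC12A2 went from place 3 to place 9 in DU145. With merged exons as length, 2, 5 and 2 of the 9 changed rank in BPH-1, DU145 and PC3.

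Of the same families, 5 further genes were compared as a list. The kidney cotransporters SLC12A1 and SLC12A3 had at most 2 reads in any library and were not tested. SLC12A5 (KCC2), the neuronal potassium-chloride cotransporter, was near the floor at 0.0532, 0.136 and 0.154 FPKM on average in BPH-1, DU145 and PC3. It was higher by a call in PC3 (0.13, limma adjusted p = 0.0121) and DU145 (0.11, limma adjusted p = 0.036) than in BPH-1, but not with the GC trend divided out (0.08 and 0.06), and in DU145 not without replicates 1 and 3 (0.07, limma adjusted p = 0.15).

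WNK2 was highest in DU145. It read 2.07 ± 0.224 FPKM there, 0.268 ± 0.0766 in BPH-1 and 0.0435 ± 0.0241 in PC3 (SD, n = 4), with no overlap between lines. DU145 was 7.72-fold above BPH-1 (log2 fold change 1.27, SE 0.101, limma adjusted p = 5.21e-06), and PC3 was lower than both BPH-1 (-0.28, limma adjusted p = 0.000684) and DU145 (-1.55, limma adjusted p = 1.73e-06). WNK2 and WNK4 thus had opposite orders in the PCa lines. WNK3 was at 0.0864, 0.0482 and 0.0118 FPKM on average in BPH-1, DU145 and PC3, and was lower in PC3 than in BPH-1 (-0.10, limma adjusted p = 0.00835). It was near the floor, with 22 to 28 reads in the BPH-1 libraries and 2 to 6 in those of PC3. In that comparison WNK3 passed the filter on low reads through its BPH-1 libraries alone, so this call is only a description.

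Further genes of the pathway were counted from 3 lists, of 14 adaptors and turnover factors, 17 sodium pump subunits and ion exchangers, and 10 genes of osmotic response and water. In PC3 against BPH-1, 9 of 14 tested adaptors changed (4 higher, 5 lower), as did 9 of 11 pump and exchanger genes (5 higher, 4 lower) and 4 of 8 osmotic genes (all 4 lower). In DU145 against BPH-1 the counts were 9 of 14 (3 higher, 6 lower), 6 of 13 (4 higher, 2 lower) and 6 of 9 (2 higher, 4 lower). In PC3 against DU145 they were 8 of 14 (5 higher, 3 lower), 4 of 11 (1 higher, 3 lower) and 3 of 9 (1 higher, 2 lower). With the list of 5, the counts were 25 of 36, 23 of 39 and 16 of 36, near the shares of all genes given above.

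From these lists, 7 genes are named by a rule: changed in all 3 comparisons, with separate libraries in at least 2. The share of all genes that meets this rule was not computed, so the 7 are described and their count is not a result about the pathway. AKR1B1, aldose reductase, which makes the osmolyte sorbitol, read 8.26 ± 1.429 FPKM in BPH-1, 27.9 ± 6.459 in DU145 and 0.0969 ± 0.0267 in PC3 (SD, n = 4). The DU145 mean was 3.38-fold above BPH-1 and the BPH-1 mean 85.2-fold above PC3, so the PCa lines lay on opposite sides of BPH-1. CUL3, the cullin of the ubiquitin ligase that degrades WNK kinases, read 5.22 ± 0.563, 1.11 ± 0.625 and 2.76 ± 0.910 FPKM in BPH-1, DU145 and PC3. Its fall in PC3 (-0.76, limma adjusted p = 0.005) turned to 0.32 (limma adjusted p = 0.0751) with the GC trend divided out, while that in DU145 (-1.61, limma adjusted p = 0.000161) was still called at -0.90. KLHL3, which brings WNK kinases to that ligase, read 0.386 ± 0.143, 0.118 ± 0.0780 and 0.615 ± 0.124 FPKM, and its rise in PC3 (0.22, limma adjusted p = 0.0438) was not called with the GC trend divided out (0.16, limma adjusted p = 0.0977). The KLHL3 libraries of PC3 and BPH-1 overlapped, and the rise was called in only 7 of 18 alternatives.

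SGK1, a kinase that acts on sodium transport and on WNK4, was highest in BPH-1, at 2.48 ± 0.735 FPKM against 0.437 ± 0.218 in DU145 and 0.798 ± 0.108 in PC3. Its PC3 and DU145 libraries overlapped, and that difference (0.33, limma adjusted p = 0.0377) was called in 9 of 20 alternatives. NRBP2, a pseudokinase related to the WNKs, was lowest in BPH-1, at 0.495 ± 0.163 FPKM against 3.61 ± 0.454 in DU145 (7.30-fold) and 1.70 ± 0.159 in PC3 (3.45-fold). SLC26A6, an exchanger of chloride for other anions, rose in the same order as WNK4, from 0.798 ± 0.136 FPKM in BPH-1 to 1.72 ± 0.495 in DU145 and 3.34 ± 0.477 in PC3. TSC22D1, of the TSC22 domain family, read 3.92 ± 0.592, 2.68 ± 0.476 and 7.03 ± 1.391 FPKM in BPH-1, DU145 and PC3, with PC3 above BPH-1 and DU145 below it, the latter not by a call with the GC trend divided out (-0.30, limma adjusted p = 0.068). The SDs are over 4 libraries in each case.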

How the data were processed

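RNA-sequencing of 12 libraries (4 each of BPH-1, DU145 and PC3) was analysed from 1 table. The authors deposited FPKM values with GRCh38 gene coordinates; the header names no unit, so FPKM was taken from the values. The submitters' processing notes list CASAVA 1.8, HISAT2 2.1.0 and edgeR without their roles. The counting program and the use of strand are not given in the sources used here. Columns were matched to samples by name, with 0 left unassigned.

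With gene length as the sum of distinct exons in GENCODE 29, 92.5% to 93.6% of low values per library were whole reads, against 14.2% to 16.6% with merged exons. All 108 values of the 9 genes were whole reads within 0.02 read. The recovered depth (12950665 to 16309559 reads) limits precision by counting error only, and 263 genes without a length were left out. All 18 replicate pairs differed by more than counting noise, with a chi-square of 17.3 to 219 per gene.

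The planned limma fit (3.58.1, with trend, R 4.3.3) was made on log2(FPKM + 1), each on the 2 lines compared, for genes that reached 10 reads, at the median depth, in 4 libraries and 15 reads in all. P-values were Benjamini-Hochberg adjusted over all genes tested, and a change was called under 0.05. Exact permutation tests were two-sided. On simulated data for PC3 against BPH-1 (16408 genes), 97 of 100 genes changed 2-fold and 100 of 100 changed 4-fold were recovered, with 9 of 206 calls on unchanged genes. That simulation had 1 fixed spread for all genes, no GC trend between libraries and few changed genes, each of 50 mean reads or more. It checks the fit, and its rates do not carry over to the replicate spread and GC trends of the real libraries. Simulated calls from a GC trend alone fell from 5930 to 0 with the correction, fitted as a natural spline (5 degrees of freedom) to genes of 50 reads or more.

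The genes named are the 9 members, 5 further genes of their families, other pathway genes called in all 3 comparisons with separate libraries in at least 2, the 3 nearest tested neighbours of WNK4 on each side with STAT3, STAT5A and STAT5B, genes overlapping a member, and the 3 genes most like WNK4. Members and lists were chosen with earlier results of these data known, and 1 planned gene is not reported here. Alternatives were other filters, log2(FPKM + 0.1), 1 fit over 3 lines, a replicate block, 3 other scalings, the GC correction, voom on the recovered reads, a log2 fold change over 1 and leaving out each library. Leaving out DU145 replicates 1 and 3, or 2 and 4, was added after the data were seen. Python 3.11.15, numpy 2.4.6, pandas 2.3.3, scipy 1.17.1 and matplotlib 3.10.9 were used.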

Additional observations from a re-analysis of the deposited data

Results flagged for a closer look

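Of 57 groups of 4 libraries (19 genes in 3 lines), 2 held a library far from the other 3 by Dixon's test, and chance gives about 1 in 20. SLC12A4 read 3.923 FPKM in PC3 replicate 4 against 2.863 to 2.96 in the others. WNK3 read 0.02402 FPKM in PC3 replicate 1 against 0.007476 to 0.008005, at which level a few reads set the value.

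PC3 and DU145 differed from each other, and so in their difference from BPH-1, for 4 of 11 genes tested among the 9 and their families (limma, Benjamini-Hochberg adjusted over all genes), where 48.3% of all genes did. The log2 differences, PC3 minus DU145, were 0.716 for SLC12A7, -0.815 for SLC12A8, 2.141 for WNK4 and -1.553 for WNK2. A further 7 pathway genes were named because they differed here among other comparisons, so their differing is a description. For them the values were 0.531 for KLHL3, 0.847 for CUL3, 0.334 for SGK1, -0.767 for NRBP2, 1.116 for TSC22D1, 0.688 for SLC26A6 and -4.691 for AKR1B1. SLC12A7 was above BPH-1 in both PCa lines, WNK2 and AKR1B1 were above it in DU145 and below it in PC3, and KLHL3 and TSC22D1 were above it in PC3 and below it in DU145. The adjusted p against BPH-1 was 0.0438 for KLHL3 in PC3 and 0.0465 for TSC22D1 in DU145.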

How the results depend on the processing

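Of 549 recomputed log2 fold changes of the 9 genes, 496 kept direction and side of the threshold, 29 passed only under the alternative, 3 no longer passed and 21 changed sign. Of 550 for the other named genes, 498, 1, 48 and 3 did so. A log2 fold change over 1 as well left 3 of the 9 genes in PC3 against BPH-1 and 1 in PC3 against DU145. It left 10, 15 and 7 other pathway genes, and 4429, 4894 and 3177 of all genes, in the comparisons in the order above. In PC3 against DU145, 5 of the 9 passed with median-of-ratios scaling, 7 with the GC trend divided out, 5 without PC3 replicate 4 and 8 without DU145 replicates 2 and 4. Leaving out single libraries gave 5 to 6, 3 to 5 and 3 to 5 of the 9 genes, 22 to 25, 21 to 24 and 13 to 19 other pathway genes, and 10601 to 11320, 9617 to 11458 and 7019 to 8239 of all genes. In PC3 against BPH-1, signs changed for WNK1 (-0.204 with the same sum per library, -0.163 with the GC trend divided out, -0.108 to 0.288 without single libraries, including -0.1, -0.07 and -0.033), STK39 (-0.151 with the same sum) and CUL3 (0.319 with the GC trend divided out). In DU145 against BPH-1 they changed for SLC12A4 (-0.068 same sum, -0.252 GC, -0.142 without DU145 replicates 1 and 3, -0.003 to 0.256 without single libraries), SLC12A9 (-0.061 same sum, -0.206 GC, -0.098 without replicates 1 and 3), WNK1 (-0.709 to 0.153 without single libraries, with 0.04 without replicate 1 and 0.153 without replicate 3, and 0.808 without both), STK39 (0.119 GC) and WNK3 (0.007 without replicates 1 and 3). In PC3 against DU145 they changed for WNK1 (-0.134 to 0.728 without single libraries, with -0.02 without DU145 replicate 1 and -0.134 without replicate 3, and -0.789 without both) and SLC12A5 (-0.013 without replicates 2 and 4). The cause was not tested. Scaling to the same sum moved the median of all genes from -0.126 to -0.282 in PC3 and from -0.026 to -0.164 in DU145 against BPH-1, and the share of calls that were higher from 40.2% to 30.3% and from 48.4% to 38.6%.

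Replicate numbers did not pair the libraries: deviations of same-numbered libraries correlated at -0.0896 to -0.0639 (BPH-1 and DU145), -0.136 to 0.104 (BPH-1 and PC3) and -0.655 to 0.515 (DU145 and PC3). With the replicate block, 5, 4 and 3 of the 9 genes passed, as without it, and 10733, 10131 and 6747 of all genes did.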
